A study of Mus musculus with 33 samples.

Results

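The genes described here are 10 mouse genes that serve antigen receptor gene recombination and the first steps of the B cell lineage: Rag1, Rag2, Dntt, Il7r, Vpreb1, Vpreb3, Igll1, Ebf1, Pax5 and Cd79a. They were found by their symbols, and all 10 were among the 55376 gene symbols counted in each of 33 RNA sequencing libraries. The study asked how nicotinamide riboside (NR), which the body converts to NAD+, acts on blood progenitors of old mice, C57BL/6 males of 24 to 29 months. O-WT mice were untreated, O-NR mice received NR in their drinking water for 4 to 6 weeks, and O-NR-RC mice had 2 months without it after the treatment. The methods give a concentration of 12 mM for another strain of the study and none separately for the old mice.

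The 24 libraries of cohort 2 came from 3 sorted bone marrow populations, with 4 O-WT and 4 O-NR libraries each: common lymphoid progenitors (CLPs), hematopoietic stem cells (HSCs) and the myeloid progenitors of granulocytes and monocytes (GMPs). The 9 libraries of cohort 1 were HSCs alone (2 O-WT, 4 O-NR, 3 O-NR-RC). Between 4792380 and 23816042 reads were counted on genes per library, with a median of 11998451. One label field gives the GMPs as common myeloid progenitors, while their titles and the paper use GMP. Neither the labels nor the methods say that each library is 1 mouse, so the p-values measure the spread between these libraries. The summed CPM (reads of a gene scaled to the same total of counted reads in every library) of 3 CLP markers was 461 to 790.2 in CLPs and at most 29.5 in the HSCs and GMPs of cohort 2. That of 5 HSC markers was 1109 to 1353 in the HSCs of cohort 2 and at most 103 in CLPs and GMPs, and that of 5 GMP markers was at least 17084 in GMPs and at most 559 in the other cells of cohort 2. The sums include genes of surface proteins used in the gates, Flk2 (for CLPs and against HSCs) and CD150 (for HSCs). In part they therefore restate the sort.

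Lymphocytes build the genes of their antigen receptors by cutting and rejoining DNA. RAG1 and RAG2 together cut at signal sequences beside the receptor gene segments, terminal transferase (the product of Dntt) adds bases at the cut ends without a template, and the general end joining machinery closes them. The receptor for interleukin 7 (Il7r) carries survival and growth signals of lymphoid progenitors. The transcription factors EBF1 and PAX5 start and fix the B cell program, in which the surrogate light chain (Vpreb1, Igll1), the related Vpreb3 and the signalling chain CD79A make up or accompany the pre-B cell receptor.

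Reads of Vpreb1 can be shared with a near copy, Vpreb2, which lies on the same chromosome. Their coding sequences of 429 bases each differ at 9 bases, an identity of 97.9%. Of the 662 stretches of 1 read length in the Vpreb1 transcript, 92 also occur in the Vpreb2 transcript (13.9%). The stretch of coding bases 268 to 387 is shown because it holds 6 of the differences, in capitals, and because its first part has only 1 of them. Both sequences are from Gencode M21.
Vpreb1: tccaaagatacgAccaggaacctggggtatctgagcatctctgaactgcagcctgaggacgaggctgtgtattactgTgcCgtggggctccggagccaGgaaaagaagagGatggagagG
Vpreb2: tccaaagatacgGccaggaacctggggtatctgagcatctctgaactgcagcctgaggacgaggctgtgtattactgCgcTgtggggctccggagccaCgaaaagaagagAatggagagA
How reads that fit both genes were counted is not given in the sources used here, so the split between them is uncertain. Vpreb2 had 13.1 to 24.99 CPM in CLPs, where Vpreb1 had 13.6 to 40.8. Some members share exon bases with neighbours in the annotation, and reads there can belong to either gene. Rag1 shares 80 bases with B230118H07Rik on the same strand, which strand cannot resolve, and Rag2 shares 208 bases with it on the opposite strand, and that gene was at 6.03 to 11.1 CPM in CLPs. Vpreb1 shares 108 bases with Top3b on the opposite strand, and Pax5 shares 125 bases with the antisense gene Gm12462 and 636 bases with 5730488B01Rik.

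All 10 genes were higher in CLPs than in HSCs and GMPs, in O-WT and in O-NR mice. For none of them did a CLP library overlap with an HSC or GMP library of cohort 2. How many of all genes were separated in this way was not counted. Among the 10, Dntt and Rag1 had the largest gaps. The lowest CLP value was 186 times the highest HSC or GMP value for Dntt and 48.4 times for Rag1, against 17.2 times for Rag2 and 9.44 times for Igll1, the smallest ratio of the 10. In bulk libraries fewer cells of a type and less RNA per cell cannot be told apart.

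Dntt (chr19:41029275-41059525 in mm10, plus strand) codes for terminal transferase. It was at 1753, 1833, 1319 and 1731 CPM in the O-WT CLPs and at 2096, 2191, 1278 and 1113 CPM in the O-NR CLPs. The 8 HSC libraries of cohort 2 had 1.55 to 5.99 CPM (median 4.05), and the 8 GMP libraries 1.76 to 4.00 (median 2.60). The O-NR CLPs thus held both the highest and the lowest CLP values, all far above the other cells. On the log2 scale CLPs exceeded HSCs by 8.90 ± 0.37 (SE) in O-WT and 8.64 ± 0.36 in O-NR, and GMPs by 8.83 ± 0.37 and 8.92 ± 0.37. Dntt had the smallest p of all 22573 genes tested in each of these 4 comparisons (adjusted p = 9.58e-27 for CLPs against HSCs in O-WT, edgeR's quasi-likelihood test).

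Rag1 (chr2:101638282-101649501, minus strand) and Rag2 (chr2:101624718-101632529, plus strand), the adjacent genes of the recombinase, differed in level. Rag1 was at 671, 589, 413 and 508 CPM in the O-WT CLPs and at 439, 696, 513 and 470.0 CPM in the O-NR CLPs. Rag2 was at 102, 118, 96.2 and 117 CPM in the O-WT CLPs and at 87.3, 99.0, 96.2 and 77.4 CPM in the O-NR CLPs. For both genes O-WT and O-NR overlapped. HSCs of cohort 2 had 2.62 to 8.54 CPM of Rag1 (median 3.96) and 0.921 to 4.51 CPM of Rag2 (median 1.94). CLPs exceeded HSCs on the log2 scale by 6.46 ± 0.31 for Rag1 and 5.65 ± 0.28 for Rag2 in O-WT, with adjusted p of 8.60e-24 and 2.91e-23 (edgeR). In O-NR the differences were 7.06 ± 0.32 and 5.27 ± 0.28.

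Il7r (chr15:9505788-9530176, minus strand) is the gene of a sorting marker. CLPs were gated for IL-7Rα protein on their surface and HSCs against it, so its difference between these cells checks the sort. Il7r was at 332, 273, 258 and 286 CPM in the O-WT CLPs and at 298, 288, 270.3 and 237 CPM in the O-NR CLPs. The highest CLP value was 1.40 times the lowest, the narrowest range of the 10 genes. In HSCs and GMPs of cohort 2 it reached at most 7.47 CPM, and CLPs exceeded HSCs by 5.88 ± 0.32 and GMPs by 6.46 ± 0.34 (log2, O-WT).

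Ebf1 (chr11:44617317-45008091, plus strand) and Pax5 (chr4:44524757-44710487, minus strand) code for the transcription factors of B cell commitment. Ebf1 was at 297, 269.9, 194 and 182 CPM in the O-WT CLPs and at 147, 274, 265 and 288 CPM in the O-NR CLPs. Pax5 was at 317, 274, 168 and 168 CPM in the O-WT CLPs and at 123, 249.6, 275 and 324 CPM in the O-NR CLPs. Both genes were lowest in O-NR 1 and lower in O-WT 3 and 4 than in the remaining 5 libraries. HSCs of cohort 2 had up to 11.97 CPM of Ebf1 and up to 9.91 CPM of Pax5, the highest HSC values of that cohort among the 10 genes. The difference between CLPs and HSCs was 4.89 ± 0.30 for Ebf1 and 5.02 ± 0.31 for Pax5 in O-WT (log2; adjusted p = 8.07e-20 and 6.75e-20, edgeR).

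Among the genes of the pre-B cell receptor, Cd79a (chr7:24897381-24902197, plus strand), which codes for a signalling chain, was at 101, 100.4, 67.6 and 64.3 CPM in the O-WT CLPs and at 56.9, 83.4, 94.4 and 124 CPM in the O-NR CLPs. Igll1 (chr16:16860671-16863985, minus strand), the λ5 part of the surrogate light chain, was at 89.3, 81.6, 59.3 and 38.2 CPM and at 36.8, 82.5, 73.1 and 116 CPM. Vpreb1 (chr16:16868403-16870843, minus strand), its other part, was at 40.8, 29.9, 19.4 and 18.4 CPM and at 13.6, 36.6, 21.9 and 36.7 CPM. As with Ebf1 and Pax5, O-NR 1 was lowest for each of these genes, and the treatments overlapped. Vpreb3 (chr10:75943057-75949657, plus strand), whose protein is bound in the cell by the chains of the pre-B cell receptor, was at 36.6, 26.6, 16.5 and 21.8 CPM in O-WT and at 13.6, 33.7, 35.0 and 39.6 CPM in O-NR. No HSC or GMP library of cohort 2 had more than 1.00 CPM of Vpreb3, 1.33 CPM of Vpreb1 or 2.38 CPM of Cd79a. Vpreb3 had 0 reads in HSC O-NR 4, where 3 reads, the limit that a count of 0 allows, are 0.299 CPM. Limits of this kind cover counting error only.

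**Figure D1:**
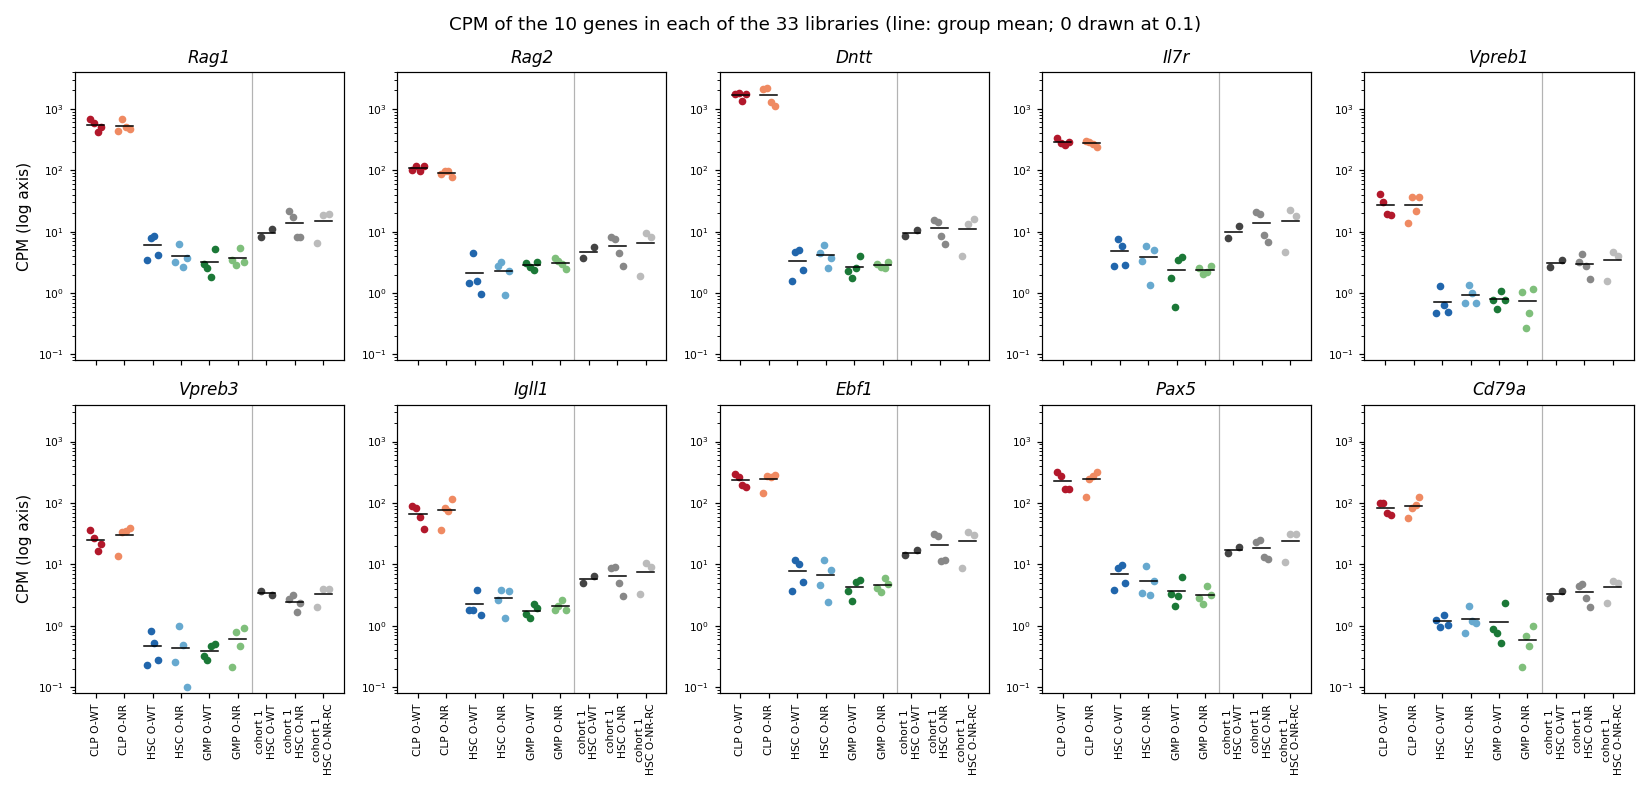
Level of each of the 10 genes in CPM (log axis), with 1 point per library, the line at the group mean, CLPs, HSCs and GMPs of cohort 2 to the left of the grey line and HSCs of cohort 1 to its right. In every panel the 8 CLP libraries lie above all other libraries, and the O-WT and O-NR points of a cell type overlap.

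All 10 genes were called higher in CLPs than in HSCs (adjusted p below 0.05) in both treatments, where 9.38% of the 22573 genes tested were called higher in O-WT and 12.5% in O-NR. Against GMPs all 10 were also called higher in both treatments, with a background of 32.1% in O-WT and 19.9% in O-NR. The median log2 difference of the 10 was 5.70 and 5.77 against HSCs and 5.54 and 5.71 against GMPs (O-WT, then O-NR), while that of all genes tested was 0.11, 0.09, 0.42 and 0.29. Vpreb1, Vpreb3, Igll1 and Cd79a passed the filter on low counts only through the CLP libraries, so a difference was built into their being tested.

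**Figure D2:**
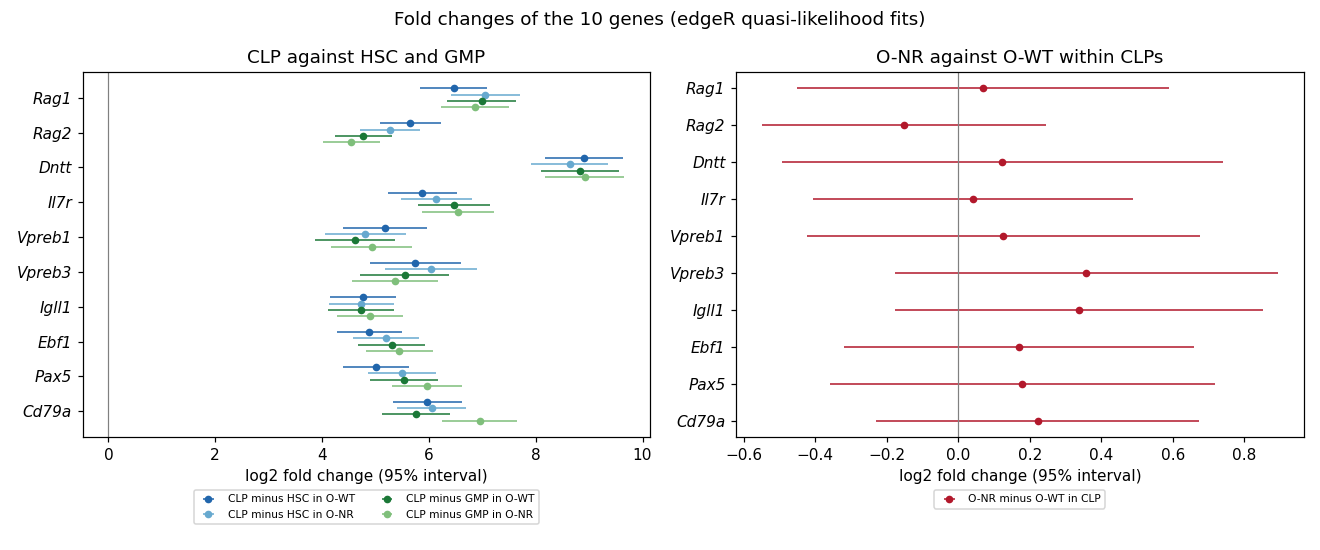
Left, log2 fold change of each gene in CLPs against HSCs and GMPs, and right, in O-NR against O-WT within CLPs, each with its 95% interval from the edgeR fits. On the left every interval lies above 3.87, with Dntt farthest to the right, and on the right every interval spans 0.

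The levels of different genes were compared per kb of exon. In the 8 CLP libraries Dntt stood at 726 ± 171 CPM per kb (SD), and its lowest library was above the highest library of any other member. Rag1 followed at 81.3 ± 15.8 CPM per kb, above Il7r (60.1 ± 6.06) in 8 of 8 libraries, although the ranges of the pair overlapped. Il7r and Cd79a (59.4 ± 15.6) were not separable, since Il7r was higher in 5 of 8 libraries. Cd79a was above Igll1 (33.3 ± 12.3) in 8 of 8. From Igll1 on, through Vpreb3 (32.5 ± 11.4), Rag2 (28.9 ± 3.97), Pax5 (26.8 ± 8.46), Ebf1 (24.6 ± 5.79) and Vpreb1 (22.7 ± 8.48), each gene was above the next in only 4 to 6 of 8 libraries. Rag1 thus stood higher per kb than its partner Rag2.

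Because the genes rose together in CLPs, the 250 bases before their RefSeq start sites (GRCm38.p6) were searched on both strands for the letters of motifs of lymphoid factors. TGTGGT, the core bound by Runx factors, occurred in 4 of 10 members, against 14.05% of the 32851 windows of this length over all genes. CAGNTG, a form of the E-box bound by E2A, occurred in 6 of 10 (44.8% of all windows), CCCNNGGG, the inner part of the palindrome bound by EBF1, in 1, Igll1 (11.8%), and the same letters between a T and an A in 0 (0.779%). The stretches around TGTGGT are shown since they are the matches with the highest share relative to all windows, with the motif in capitals, or its reverse complement ACCACA in Igll1. They are, in the order printed, Rag1 at chr2:101649569-101649638 (minus strand), Vpreb3 at chr10:75948245-75948299 (plus), Igll1 at chr16:16864078-16864133 (minus) and Ebf1 at chr11:44618063-44618099 (plus).
Rag1: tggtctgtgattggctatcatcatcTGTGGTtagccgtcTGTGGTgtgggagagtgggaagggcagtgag
Vpreb3: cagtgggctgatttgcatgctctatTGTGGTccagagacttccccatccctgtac
Igll1: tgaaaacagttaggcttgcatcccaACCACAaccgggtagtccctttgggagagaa
Ebf1: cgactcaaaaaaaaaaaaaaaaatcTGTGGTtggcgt
Rag1 had 2 copies, 81 and 67 bases before its start. A match is a description of these letters and not a measured binding site. Ebf1 has 2 RefSeq start sites, of which 1 had TGTGGT before it, and the other 9 members have 1. Members were counted per gene, while the shares over all genes are per window. The stretches of Vpreb3 and Ebf1 lie inside the Gencode spans printed above, because the RefSeq starts used lie downstream of the Gencode starts.

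The low levels in HSCs and GMPs were set beside those of 1968 olfactory and vomeronasal receptor genes. These were taken to be largely silent in blood cells, which was not tested. Their summed CPM was 1498 to 4663 in HSCs of cohort 2, 857 to 2370 in GMPs and 2112 to 8286 in CLPs. Per kb of exon, the summed level of the 10 genes was 1.57 to 2.06 times that of the receptor genes in HSCs and 1.96 to 2.60 times in GMPs. In CLPs it was 45.8 to 277 times. The lowest of these was CLP O-WT 3, which also had the most receptor reads (8286 CPM, against at most 4952 in the other CLPs). Single genes ranged in HSCs from a median of 1.09 times the receptor level (Vpreb3) to 3.88 times (Dntt). In GMPs the medians ran from 1.54 (Pax5) to 4.73 (Dntt), with Rag2 at 3.52.

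**Figure D3:**
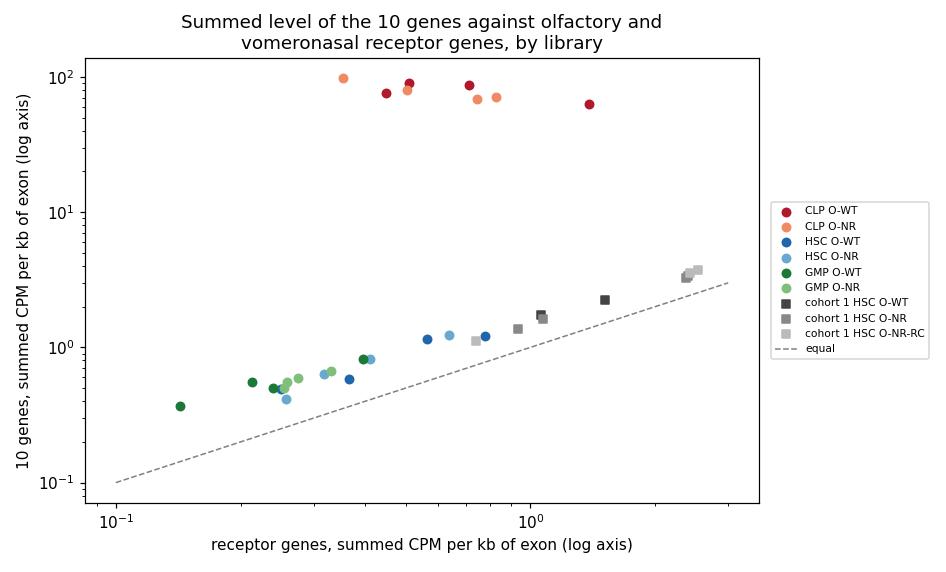
Summed CPM per kb of exon of the 10 genes (vertical, log axis) against that of 1968 olfactory and vomeronasal receptor genes (horizontal, log axis), 1 point per library, with the dashed line where both are equal. HSC and GMP libraries of both cohorts follow the line at 1.37 to 2.60 times its height, while the CLPs lie at 45.8 times and more.

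Between HSCs and GMPs, Rag2 was the member called. It was at 1.47, 4.51, 1.58 and 0.967 CPM in O-WT HSCs and at 3.08, 2.64, 2.39 and 3.15 CPM in O-WT GMPs. Only O-WT 2 of the HSCs reached the GMP values. In O-NR it was at 2.77, 3.21, 0.921 and 2.29 CPM in HSCs and at 3.66, 3.35, 2.98 and 2.50 CPM in GMPs, and the cell types overlapped. Rag2 was lower in HSCs than in GMPs by −0.88 ± 0.29 in O-WT (log2; adjusted p = 0.0122, edgeR) and −0.72 ± 0.29 in O-NR (adjusted p = 0.0433), and thus 1 of 10 members was called lower in each, against 18.6% and 15.7% of all genes, with 0 members higher (20.0% and 18.0% of all genes). The median of the 10 genes was −0.06 and 0.21 and that of all genes 0.32 and 0.19. The calls of Rag2 rest on 13 to 52 reads per library. Rag2 shares 208 exon bases with B230118H07Rik, and reads there can belong to either gene. In O-WT that gene was lower in CLPs than in HSCs (log2 −1.09) and, by more, than in GMPs (−1.58). By these values it was lower in HSCs than in GMPs, which is also the direction of the Rag2 call. Its part in the Rag2 values was not tested. In O-WT the call was lost without HSC O-WT 3 (adjusted p = 0.0549) or HSC O-WT 4 (0.0843), and in O-NR without HSC O-NR 3 (0.211), HSC O-NR 4 (0.0717), GMP O-NR 1 (0.0744) or GMP O-NR 2 (0.0505). With upper quartile scaling Rag2 was not called in either treatment and Rag1 was called higher in O-WT HSCs.

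Within the CLPs some pairs of the 10 genes passed a test of correlation and others did not. Whether the correlations of these pairs differ was not tested, and they depended on scaling and single libraries (below). Ebf1, Pax5, Cd79a, Vpreb1, Vpreb3 and Igll1 went up and down together from library to library, while no pair of them with Rag1, Rag2, Dntt or Il7r passed the test. All 45 pairs of members were compared over the 8 libraries on log2 CPM, with exact permutation tests over the 40320 orders and Benjamini-Hochberg adjustment over the 45. In 15 pairs both Pearson's r and Spearman's rho passed an adjusted p of 0.05. These were the 15 pairs among the 6 B lineage genes (r from 0.842 to 0.986). Pairs of other genes were not tested over these 8 libraries, so there is no background share beside this count. Ebf1 and Pax5 had the highest r, 0.986 (adjusted p = 0.00446, exact permutation), with rho = 0.857 (adjusted p = 0.0321, exact permutation). Leaving out the 2 libraries farthest from the median left r at 0.731 or more in these 15 pairs.

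None of the 24 pairs of a B lineage gene with Rag1, Rag2, Dntt or Il7r passed (r from −0.462 to 0.727), nor did the 6 pairs among those 4 genes (r from 0.416 to 0.720). With TMM scaled CPM 0 of these pairs passed in both measures either, but r was higher, from −0.119 to 0.774 in the 24 and from 0.701 to 0.831 in the 6. The r of Rag1 with each of the 6 B lineage genes was positive, 0.416 to 0.727. With TMM scaled CPM Pearson's r alone passed for Rag1 with Vpreb1 (adjusted p = 0.0463, exact permutation) and Ebf1 (adjusted p = 0.0493, exact permutation). Among the 4 genes it alone passed for Dntt with Il7r (r = 0.831, adjusted p = 0.0279, exact permutation) and Rag1 with Il7r (r = 0.821, adjusted p = 0.0386, exact permutation). Of all 45 pairs, 28 had r above 0 without this scaling and 42 with it. Dntt and Cd79a, for example, had r = −0.462 (p = 0.247, exact permutation; adjusted p = 0.476) and rho = −0.405 (p = 0.327, exact permutation; adjusted p = 0.525), and r was 0.0671 without the 2 farthest libraries and −0.0233 with TMM scaled CPM. Dntt was highest in O-NR 1 and 2 and lowest in O-NR 4, where Cd79a was highest. The highest CLP value was 3.14 times the lowest for Igll1, 3.00 for Vpreb1, 2.92 for Vpreb3, 2.62 for Pax5, 2.18 for Cd79a and 2.02 for Ebf1. It was 1.97 times for Dntt, close to Ebf1, 1.68 for Rag1 and 1.52 for Rag2. With 7 libraries the number of pairs that passed fell to 4 without O-WT 1, O-NR 1 or O-NR 4 and to 5 without O-WT 3 or O-WT 4, while r among the 6 genes stayed at 0.742 or above.

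Values of other cell types stood beside this variation. The summed CPM of 9 mature B and plasma cell markers, which a few B cells in the gate would raise, ran from 655 in O-WT 3, where the 6 genes were below their means, to 787 in O-WT 1, where Ebf1 and Vpreb1 were highest. It was 717 in O-NR 1 (lowest in the 6 genes) and 740 in O-NR 4 (highest in Cd79a, Pax5, Vpreb3 and Igll1). In O-NR 3, at 659, Ebf1, Pax5, Cd79a and Vpreb3 were above the mean CPM of both treatments. There Vpreb1 was below both means and Igll1 between them. The sum was 782 in O-NR 2, 709 in O-WT 2 and 700 in O-WT 4. Ighm made up most of it (424 to 642 CPM), and Igkc, a light chain gene of mature B cells, was at 0.626 to 8.34 CPM. None of the 9 markers was at 0 in all libraries of a group. Summed markers of neutrophils ranged from 11.4 CPM in O-NR 3 to 163 CPM in O-WT 4, and those of GMPs from 287 CPM in O-WT 2 to 559 CPM in O-WT 3. Their part in the variation of the 6 genes was not tested.

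**Figure D4:**
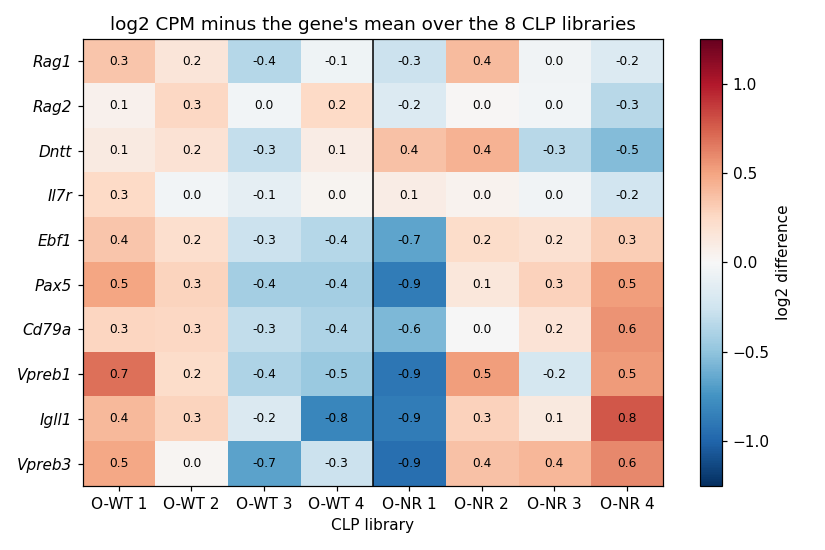
log2 CPM of each gene in each CLP library minus the gene's mean over the 8 CLP libraries, with O-WT to the left and O-NR to the right of the black line. The lower 6 rows, the B lineage genes, are all below their mean in O-WT 3, O-WT 4 and O-NR 1, while Dntt is above its mean in O-NR 1.

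No member was called between O-NR and O-WT CLPs. The mean was 545 ± 110.2 CPM (SD, n = 4) in O-WT and 529.5 ± 115 (n = 4) in O-NR for Rag1, 1659 ± 231 and 1669.5 ± 553 for Dntt, and 108 ± 10.7 and 90.0 ± 9.77 for Rag2. Among the B lineage genes it was 236 ± 56.6 and 244 ± 64.8 CPM for Ebf1, 232 ± 75.5 and 243 ± 85.4 for Pax5, and 67.1 ± 23.1 and 77.0 ± 32.5 for Igll1. The 4 O-WT and the 4 O-NR values overlapped for each of the 10 genes, and the means of these genes lay less than 1 SD apart except for Rag2.

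In the edgeR fit of the 8 CLP libraries 0 of 10 members passed an unadjusted p of 0.01, where 0.412% of the 19909 genes tested did. At 0.05, where the share of all genes was not counted here or in the NR comparisons below, 0 members passed with edgeR or DESeq2. Their log2 differences ran from −0.15 (Rag2, 95% interval −0.55 to 0.24) to 0.36 (Vpreb3, −0.18 to 0.89, adjusted p = 1.00, edgeR), with a median of 0.15, against −0.00 for all genes. Of these differences 9 of 10 were above 0, but the sign of some was not stable. Rag1 and Il7r had lower mean CPM in O-NR. Without CLP O-WT 3, Rag1 (−0.10), Dntt (−0.040), Il7r (−0.081), Vpreb1 (−0.052) and Pax5 (−0.00087) were below 0 as well as Rag2. For Dntt the interval was −0.49 to 0.74, for Rag1 −0.45 to 0.59 and for Pax5 −0.36 to 0.72. No gene of the whole table had an adjusted p under 0.766 here.

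In HSCs and GMPs of cohort 2 fewer members could be tested, because the rest did not pass the filter of more than 3 CPM in 4 libraries. Of the 5 tested in HSCs (Rag1, Dntt, Il7r, Ebf1 and Pax5) 0 were called, beside 0.777% of all genes, and the smallest p was that of Rag1 (−0.55 ± 0.37, 95% interval −1.34 to 0.23, adjusted p = 0.995, edgeR). Of the 4 tested in GMPs (Rag1, Rag2, Ebf1 and Pax5) 0 were called, beside 0.986%, and Rag1 again had the smallest p (0.25 ± 0.32, −0.43 to 0.93, adjusted p = 0.997, edgeR). Rag1 was at 3.41, 7.94, 8.54 and 4.14 CPM in O-WT HSCs and at 3.20, 6.21, 2.62 and 3.79 CPM in O-NR HSCs, which overlapped. The summed mature B and plasma cell markers were at 287, 215, 345 and 885 CPM in O-WT HSCs. In O-NR HSCs they were at 334, 129, 152 and 226 CPM, and the groups overlapped. The part of these markers in the Rag1 values was not tested. With edgeR and DESeq2, 0 members had an unadjusted p under 0.05 in either cell type, and the share of all genes at that limit was not counted.

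Whether the NR effect differed between cell types was tested as an interaction over the 24 libraries. For CLPs against HSCs 0 of 10 members were called (0.403% of all genes), with Rag1 at 0.60 ± 0.38 (95% interval −0.16 to 1.35, adjusted p = 1.00, edgeR). For CLPs against GMPs 0 of 10 were also called (0.403%), and the smallest p was that of Cd79a, 1.19 ± 0.48 (95% interval 0.23 to 2.16, adjusted p = 0.992, edgeR), the 1 member with an unadjusted p under 0.05 by edgeR. Cd79a was at 0.899, 0.769, 0.530 and 2.38 CPM in O-WT GMPs and at 0.211, 0.671, 0.470 and 1.00 CPM in O-NR GMPs, which is 3 to 28 reads per library. The highest O-WT value, 2.38 CPM, stood alone among overlapping values. With the replicate number as a block its unadjusted p passed 0.01 (1.20, adjusted p = 0.978, edgeR), and it did so too without CLP O-WT 1, CLP O-NR 1, GMP O-WT 3 or GMP O-NR 4 (1.32 to 1.495).

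The HSCs of cohort 1 had more reads of the 10 genes than those of cohort 2, and more in some libraries than in others. Ebf1 was at 14.0 and 17.2 CPM in O-WT, at 31.4, 29.4, 11.2 and 11.7 CPM in O-NR and at 8.90, 34.0 and 29.8 CPM in O-NR-RC. Dntt was at 8.40 and 10.5 CPM, at 15.6, 14.5, 8.61 and 6.31 CPM, and at 3.95, 13.4 and 16.2 CPM in the same order. Both genes were highest in O-NR 1 and 2 and O-NR-RC 2 and 3. The summed CPM of the 10 genes was 134 to 153 in these 4 libraries and 46.1 to 92.6 in the other 5, and that of the receptor genes was 14252 to 15232 and 4437 to 9065. Per kb of exon the 10 genes stood at 1.37 to 1.64 times the receptor genes in all 9. The cause of the difference between libraries was not tested.

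No member was called in the 3 comparisons of cohort 1, which share libraries with each other. In O-NR against O-WT 0 of 10 were called (0.0480% of the 33350 genes tested) and Vpreb3 had the smallest p (−0.61 ± 0.28, 95% interval −1.22 to −0.01, adjusted p = 1.00, edgeR), from 3.72 and 3.13 CPM in O-WT and 2.73, 3.17, 1.70 and 2.35 CPM in O-NR. The Vpreb3 values of the groups overlapped. In O-NR-RC against O-NR 0 were called (0.0360%), with Pax5 at 0.27 ± 0.22 (adjusted p = 1.00, edgeR), and in O-NR-RC against O-WT 0 were called (0.0780%), with Vpreb3 at −0.32 ± 0.30 (adjusted p = 1.00, edgeR). In O-NR against O-WT 1 member, Vpreb3, was below an unadjusted p of 0.05 with edgeR, and 1 member was with DESeq2, while 0 were in the other comparisons with either tool. The share of all genes under 0.05 was not counted.

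Other genes of the same pathways were taken from 3 lists. Of 12 genes of DNA end joining and RAG cofactors, 5 were higher and 2 lower in CLPs than in HSCs of O-WT, with a median of 0.26 (all genes 0.11), where 9.38% of all genes were higher and 16.7% lower. Xrcc6, a Ku subunit that binds DNA ends, was higher by 2.10 ± 0.24 and Hmgb2, a DNA bending cofactor of RAG, by 2.27 ± 0.26, while Xrcc4, the partner of DNA ligase IV, was lower (−0.76 ± 0.22) as was Paxx, a Ku partner (−0.81 ± 0.26). Both lower calls were lost with upper quartile scaling (adjusted p = 0.0928 and 0.0607, edgeR), and that of Paxx without HSC O-WT 1 (0.126) or CLP O-WT 3 (0.0675). In CLPs against GMPs of O-WT 2 of these 12 were higher and 3 lower (median −0.16), against 32.1% and 24.1% of all genes.

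Of 16 genes of early lymphoid progenitors, 10 were higher and 3 lower in CLPs than in HSCs of O-WT (median 1.19), beside 9.38% and 16.7% of all genes and a median of 0.11 over them. Ly6d, which marks the B cell prone part of the CLPs, was higher by 6.98 ± 0.33 and Satb1, a chromatin organizer, by 4.90 ± 0.27, and lymphotoxin beta (Ltb, −2.70 ± 0.26) and the kinase Jak3 (−1.70 ± 0.24) were lower. Of 20 genes of the B lineage and of pre-B receptor signalling, 17 were higher and 0 lower (median 1.497) beside the same background. The adaptor Blnk (4.82 ± 0.27) and the kinase Blk (4.41 ± 0.29) had the smallest p of these. The 17 include Vpreb2 (4.96 ± 0.46), whose reads can be shared with the member Vpreb1. Vpreb2 had at most 2.11 CPM in HSCs and 0.75 CPM in GMPs of cohort 2, so it passed the filter only through CLPs. Against GMPs of O-WT 12 of the 16 were higher and 0 lower, and 14 of the 20 were higher and 1 lower (medians 1.69 and 1.33), beside 32.1% and 24.1% of all genes and a median of 0.42 over them.

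Between O-NR and O-WT CLPs 0 genes of each of these 3 lists were called, with 11, 16 and 20 tested, beside 0.412% of all genes. The smallest p of each list was that of Ccr9, a chemokine receptor of lymphoid progenitors (−0.43 ± 0.21), of Il2ra, a chain of the interleukin 2 receptor that pre-B cells carry (−0.62 ± 0.34), and of Polm, a polymerase of end joining (−0.63 ± 0.43), each with an adjusted p of 1.00 (edgeR). In HSCs of cohort 2, 1 of the 15 early lymphoid genes tested was called, Ltb, lower in O-NR by −0.49 ± 0.13 (log2; adjusted p = 0.903, edgeR), beside 0.777% of all genes and 0 of the other two lists. Under NR the end joining genes in CLPs thus had no call, and neither did the recombinase they serve.

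The genes whose pattern over the 24 libraries of cohort 2 was most like the mean of the 10 were Camk1d (r = 0.992), Blnk (0.992), Cmah (0.992), Arpp21 (0.990) and Gfra2 (0.989), of 22573 genes compared. This r mostly reflects the gap between the 8 CLP libraries and the rest. Over the 8 CLP libraries alone they were Pou2af1 (0.928), Lrmp (0.924), Cd79b (0.923), Fam53b (0.921) and Blnk (0.920), of 19909 genes. Among the members themselves r with that mean over the 8 CLPs was 0.974 for Ebf1 and 0.954 for Pax5, but 0.789 for Rag1, 0.0760 for Rag2, 0.0784 for Il7r and −0.0763 for Dntt. Each member is part of that mean, in which the B lineage genes are the majority, so these values restate the pairs above.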

How the data were processed

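Sorted HSCs, CLPs and GMPs gave 33 total RNA libraries (SMARTer stranded kit). Reads were trimmed by the authors with trim galore 0.4.3 and cutadapt 1.12, mapped to mm10 with STAR, and assigned to Gencode M22 genes with featureCounts. The counts deposited by the authors are whole reads per gene symbol, not normalized. Whether counting used strand, and how reads with several positions were treated, is not given in the sources used here, so values of overlapping genes and of near copies are uncertain.

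Printed CPM are reads scaled to a common total of counted reads, with no further scaling. Genes above 3 CPM in 4 or more libraries (2 in cohort 1) were tested with edgeR 4.0.16 (R 4.3.3, limma 3.58.1) by its quasi-likelihood test with TMM scaling and Benjamini-Hochberg adjustment over all genes tested. Cell types and interactions were fitted over the 24 libraries of cohort 2, NR within a cell type over its 8 libraries, and cohort 1 over its 9. Members were called at an adjusted p below 0.05 between cell types and, after the study's heatmaps, at an unadjusted p below 0.01 for NR. DESeq2 1.42.0, other scalings, filters, left-out libraries and a replicate block were alternatives. The fits were tested on simulated data. Positions and exon lengths are from Gencode M21 (GRCm38), and all 10 members matched.

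The members and lists were chosen with earlier results of these data known. Named besides the members were, per list, up to 2 genes per direction with the smallest p for CLPs against HSCs in O-WT, up to 2 for NR in CLPs, the 5 genes most like the members' mean, Vpreb2 and overlapping genes. Ighm and Igkc, and Ltb for NR in HSCs, were named after their values were seen. No pair of libraries of a group was closer than a chi-square per degree of freedom of 1.91, so none was treated as a duplicate. Same-numbered libraries of the 3 cell types carry a shared number in the names of their deposited tables, which may be that of a mouse. Their deviations from the group means had a mean correlation of 0.0861 (CLP and HSC), −0.0153 (CLP and GMP) and −0.142 (HSC and GMP).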

Additional observations from a re-analysis of the deposited data

Results flagged for a closer look

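In 70 sets of 4 libraries, 1 per member and group, 2 values lay farther from the rest than Dixon's 95% limit for a group of 4, which chance alone gives in about 1 in 20 sets. Igll1 in HSC O-WT 3 of cohort 2 was at 3.90 CPM (37 reads), above 1.52 to 1.78 CPM in the other 3 O-WT libraries, a gap of 0.889 of the range. Ebf1 in CLP O-NR 1 was at 147 CPM, below 265 to 288 CPM in the other 3 O-NR CLPs, a gap of 0.84 of the range. Pax5, Cd79a, Vpreb1, Vpreb3 and Igll1 were lowest in the same library. None of the 20 tests of a difference in the NR effect between cell types was called.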

How the results depend on the processing

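The calls of all 10 members higher in CLPs than in HSCs and in GMPs, in both treatments, were made under every alternative run, including DESeq2, no filter on low counts and each left-out library. Other scalings moved the median of all genes, from 0.42 (TMM) to 0.21 (RLE, DESeq2's size factors) and 0.89 (upper quartile) for CLPs against GMPs in O-WT, with 57.2%, 42.3% and 77.4% of the calls higher. Against HSCs in O-WT upper quartile scaling moved it from 0.11 to 0.35, with 36.0% of calls higher against 54.5%. For HSCs against GMPs, 0 members instead of 1 were called lower with upper quartile scaling in both treatments and with filterByExpr in O-NR. The fit of the 8 libraries alone also gave 0, but there Rag2 did not pass the filter and was not tested, so that fit says nothing on its call. Upper quartile scaling called 1 instead of 0 higher in O-WT. Single left-out libraries gave 0 to 1 called lower in each treatment.

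For the NR effect in CLPs against GMPs, 1 member instead of 0 (Cd79a) had p below 0.01 with filterByExpr (1.30), with no filter (1.24) and with the replicate block, and 0 to 1 without single libraries (CLP O-WT 1, CLP O-NR 1, GMP O-WT 3 or GMP O-NR 4 gave 1), with a difference of 0.71 to 1.495. The block changed no other count of members called. Same-numbered O-WT and O-NR libraries are not shown to be paired, with mean correlations of 0.0322 in CLPs, 0.139 in HSCs, 0.049 in GMPs and 0.034 in cohort 1.

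Among the NR differences in CLPs, which were not called, Il7r turned to −0.011 with upper quartile scaling. Without single libraries Rag1 ran from −0.13 to 0.22, Dntt from −0.073 to 0.26, Il7r from −0.081 to 0.15, Vpreb1 from −0.089 to 0.45 and Pax5 from −0.0033 to 0.42. Without CLP O-WT 3, 5 of these genes (Rag1, Dntt, Il7r, Vpreb1 and Pax5) turned below 0. The pairs of members that passed in CLPs numbered 14 instead of 15 with TMM scaled CPM and 4 to 14 with a library left out, alternatives chosen after seeing the data. The cause of these shifts was not tested. Low counts limit what could be seen of NR in HSCs and GMPs, where 5 and 6 members were not tested.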
